A study of Homo sapiens with 12 samples.

Results

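All 10 members of the PTPRZ1 and neural proteoglycan system were followed in human neuron cultures with and without knockdown of ZCCHC17: the receptor PTPRZ1, its ligands PTN and MDK, the secreted proteoglycans NCAN, BCAN and VCAN, the transmembrane proteoglycans CSPG4 and CSPG5, and the tenascins TNC and TNR. They were chosen by gene symbol, and all 10 were found among the 59653 symbols of the table and passed the filter on low counts. The group was proposed with the siZCC against siNC results already known, so levels, fold changes and calls of the members in that contrast are given as a description, without a test. The cultures were derived from induced pluripotent stem cells of IMR-90, a line started from fetal lung fibroblasts. Each library is total RNA of cells given either a negative control siRNA (siNC, 6 libraries) or an siRNA against ZCCHC17 (siZCC, 6 libraries); no untransfected culture enters the comparison, and 1 cell line stands behind all 12 libraries. Neither dose nor time after transfection is given in the sources used here, the titles carry the letters NPC while other labels call the cells neurons, and nothing says that libraries of a group came from separate cultures, so the spread between them may be partly technical.

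As background, PTPRZ1 is a receptor-type tyrosine phosphatase of radial glia, astrocytes and oligodendrocyte precursors whose extracellular part carries chondroitin sulphate chains. The small heparin-binding growth factors pleiotrophin (PTN) and midkine (MDK) bind those chains and restrain the phosphatase, which leaves its substrates more phosphorylated. Neurocan (NCAN), brevican (BCAN) and versican (VCAN) are lecticans: they bind hyaluronan at one end and tenascins at the other, and link proteins of the HAPLN family fasten them to hyaluronan. Together they form the pericellular matrix of the brain, whose chondroitin sulphate is read by neurons through PTPRS, PTPRF and Nogo receptors.

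The siNC libraries held 90755953 to 120023356 counts each, and the siZCC libraries 76115083 to 105389055. ZCCHC17 itself stood at 53.99 to 61.0 CPM (counts divided by the TMM-scaled library size, edgeR's CPM) in siNC and 9.37 to 10.6 CPM in siZCC, so every library matched its label. IL1B split each group into 3 libraries with 449 or more counts and 3 with at most 12, and this split was used as a factor in an alternative fit. The labelled cell type is neuron, and neuron markers such as MAP2 (1027 CPM in siNC) and DCX (649 CPM) were present, but so were the progenitor and glial genes VIM (3550 CPM), NES (1118 CPM), GFAP (616 CPM) and GJA1 (499 CPM). RBFOX3, a marker of mature neurons, was at 1.27 CPM. In bulk RNA, fewer cells of a type and less RNA per cell cannot be told apart.

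Of the 10 genes, 6 were called at an adjusted p under 0.05 in the fit of all genes, against 22.2% of the 24671 genes tested (11.4% higher and 10.8% lower): BCAN, PTPRZ1, VCAN, CSPG5 and NCAN were higher in siZCC and TNC was lower. PTN, MDK, CSPG4 and TNR were not called. In 3 of the 10 (BCAN, PTPRZ1 and VCAN) every siZCC library lay above every siNC library, and none lay wholly below; over all genes tested 9.74% were separated, 5.25% with siZCC higher and 4.5% with siZCC lower. Because the contrast was known when the genes were chosen, these counts describe the group and nothing is read from them.

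The promoters of the members whose groups separated, and of TNC, the called member that went the other way, are shown as the 250 bases before the RefSeq transcription start (GRCh38.p14), 5′ to 3′ on the strand of the gene. Of the 10 members, 7 had an entry in that table. Capitals mark matches, on either strand, to the GC box GGGCGG and the TATA box TATAA.
BCAN, chr1:156641867-156642116, plus strand: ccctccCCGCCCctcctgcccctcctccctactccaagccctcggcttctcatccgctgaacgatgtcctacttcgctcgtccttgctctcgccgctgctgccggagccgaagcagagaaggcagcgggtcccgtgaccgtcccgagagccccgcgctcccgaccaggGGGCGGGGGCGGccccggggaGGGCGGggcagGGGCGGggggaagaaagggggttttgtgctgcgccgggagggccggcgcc
PTPRZ1, chr7:121872911-121873160, plus strand: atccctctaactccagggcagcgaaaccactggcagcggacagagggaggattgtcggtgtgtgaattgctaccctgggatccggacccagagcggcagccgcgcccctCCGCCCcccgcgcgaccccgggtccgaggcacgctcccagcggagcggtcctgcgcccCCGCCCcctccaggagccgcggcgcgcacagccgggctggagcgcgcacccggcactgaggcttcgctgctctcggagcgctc
VCAN, chr5:83471494-83471743, plus strand: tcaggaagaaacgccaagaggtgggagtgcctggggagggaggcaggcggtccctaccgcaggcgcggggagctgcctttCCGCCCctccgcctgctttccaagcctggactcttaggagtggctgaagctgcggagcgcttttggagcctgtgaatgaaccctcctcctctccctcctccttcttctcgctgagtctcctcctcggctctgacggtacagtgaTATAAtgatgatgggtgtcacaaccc
TNC, chr9:115118158-115118407, minus strand: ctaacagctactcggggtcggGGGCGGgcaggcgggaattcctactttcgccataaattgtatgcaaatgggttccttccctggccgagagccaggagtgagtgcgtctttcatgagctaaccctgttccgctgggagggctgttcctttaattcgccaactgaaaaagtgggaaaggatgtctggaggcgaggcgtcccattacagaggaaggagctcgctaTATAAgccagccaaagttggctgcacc

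For BCAN and VCAN the window lies inside the gene as GENCODE v29 draws it, since that annotation has an earlier start; for PTPRZ1 and TNC it overlaps the first annotated bases. The BCAN window held 5 GC boxes, of which 2 adjoin each other, and no TATA box. PTPRZ1 held 2 GC boxes, while VCAN and TNC each held 1 GC box and 1 TATA box, which began at position -26 in VCAN and -27 in TNC, counted from the base before the start. Over all 35116 promoters in the table, 42.6% held a GC box and 18.9% the letters TATAA. The CCAAT box (CCAAT), the E-box CACGTG, the SOX motif ACAAAG and the palindromic NFI site were searched as well, and none of these 4 windows held one; their shares among all promoters were 32%, 6.34%, 13.7% and 0.0285%. The G and C content was 74% in BCAN, 73.2% in PTPRZ1, 60.8% in VCAN and 54.8% in TNC, where the median of all promoters was 58%. By these letters BCAN and PTPRZ1 had GC-rich windows without TATAA, while VCAN, higher in siZCC, and TNC, lower, both had 1 TATAA match.

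Before the comparison, the baseline order was set by the level per length in the siNC libraries, in CPM per kilobase of annotated exon. PTN stood first at 259 ± 6.73 CPM per kilobase (SD, n = 6), followed by NCAN at 186 ± 15.5 (SD, n = 6) and BCAN at 179 ± 11.2 (SD, n = 6). The ranges of NCAN and BCAN over the 6 libraries overlapped, so their order is not fixed. PTPRZ1 came next at 137 ± 17.2 (SD, n = 6). MDK, at 76.6 ± 3.53 (SD, n = 6), and TNC, at 75.95 ± 4.02 (SD, n = 6), could not be ordered. CSPG5 reached 22.7 ± 1.62 and VCAN 12.9 ± 1.27 (SD, n = 6 each). TNR at 1.43 ± 0.177 and CSPG4 at 1.002 ± 0.166 (SD, n = 6 each) closed the order with overlapping ranges, with VCAN 9.01 times above TNR. Thus the cultures carried a lectican, receptor and ligand set dominated by PTN, NCAN, BCAN and PTPRZ1, while CSPG4, the NG2 proteoglycan of oligodendrocyte precursors and pericytes, was near the bottom. In siZCC the mean of BCAN was 280 ± 35.7 CPM per kilobase (SD, n = 6), and that of PTN 248 ± 6.98 (SD, n = 6); their ranges overlapped, so these are not ordered either, and in siZCC 2 BCAN (231) lay below PTN (242).

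PTPRZ1, the receptor (chromosome 7, 121873089 to 122062036, plus strand, GRCh38, GENCODE v29), was measured with 110800 to 193606 counts per library. Its siNC libraries ran from 1117 to 1592 CPM with a median of 1408, and its siZCC libraries from 1726 to 1841 CPM with a median of 1792. All 6 siZCC libraries were above all 6 siNC libraries. The siNC libraries were spread widely, with siNC 3 (1117 CPM) and siNC 4 (1212 CPM) low and siNC 5 (1592 CPM) high, whereas siZCC libraries lay close together: the coefficient of variation was 12.5% in siNC and 2.51% in siZCC. The log2 fold change was 0.39 (SE 0.0620), or 1.31-fold.

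Of the ligands, PTN (chromosome 7, 137227341 to 137343865, minus strand) had the lowest coefficient of variation of the 10 genes in siNC, 2.60%, at 431 to 460 CPM with a median of 440. In siZCC it ran from 408 to 439 CPM with a median of 425, and 4 of the 6 siZCC libraries fell below the siNC range. The log2 fold change was -0.06 (SE 0.0270) and PTN was not called. MDK ran from 158 to 179 CPM in siNC with a median of 168 and from 167 to 185 CPM in siZCC with a median of 181. Its log2 fold change of 0.09 (SE 0.0346) pointed the other way and was not called, although 4 of the 6 siZCC libraries lay above every siNC library; it was called without siNC 3 and without siZCC 2. Taken per length within each library, PTN exceeded MDK 3.38 ± 0.113 times in siNC and 3.04 ± 0.121 times in siZCC (SD, n = 6 each), and the groups did not overlap in this ratio (3.25 to 3.51 and 2.82 to 3.19). With the length of the longest transcript, an alternative added after seeing the data, the ratios were 2.19 ± 0.0731 and 1.96 ± 0.0783 (SD, n = 6 each), so their size depends on the length used. PTPRZ1 per PTN, by annotated exon length, was 0.533 ± 0.0771 in siNC and 0.727 ± 0.0353 in siZCC (SD, n = 6 each), again without overlap. Other ratios overlapped: TNC per TNR was 53.8 ± 7.38 in siNC and 51.5 ± 9.74 in siZCC (SD, n = 6 each). CSPG5 per CSPG4 was 23.1 ± 4.07 and 26.3 ± 6.92 (SD, n = 6 each). All ratios are descriptions, since the contrast was known when the genes were chosen.

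**Figure D1:**
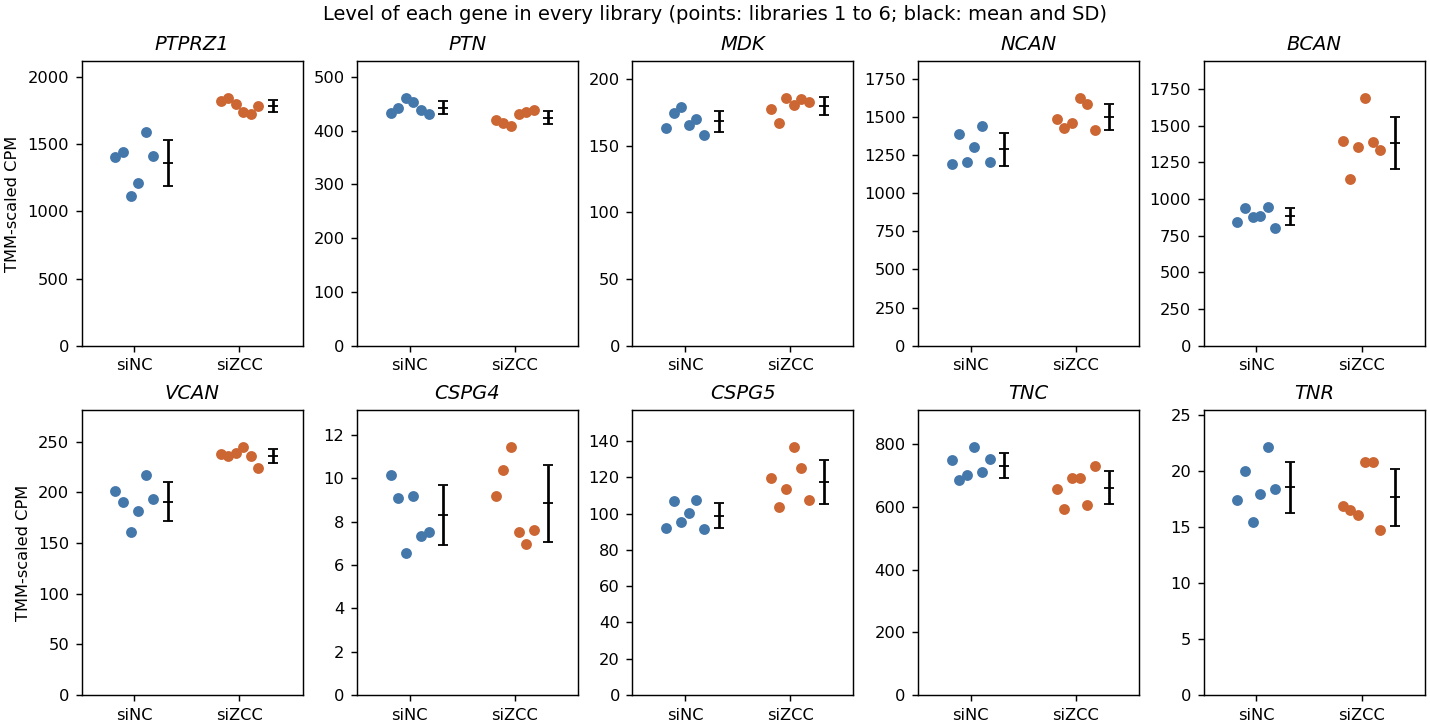
TMM-scaled CPM of the 10 genes (y axis from 0, own scale per panel) in the 6 siNC and 6 siZCC libraries; points are libraries and the black bar is the mean with SD. BCAN, PTPRZ1 and VCAN separate the groups completely, and PTPRZ1 and VCAN are less spread in siZCC (coefficients of variation 2.51% and 2.88%) than in siNC (12.5% and 9.89%).

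Among the lecticans, BCAN, the brain-specific brevican, differed most. It ran from 801 to 946 CPM in siNC with a median of 880 and from 1138 to 1686 CPM in siZCC with a median of 1370. The lowest siZCC library, siZCC 2, was still above the highest siNC library, and siZCC 4 was the highest of all. The log2 fold change of 0.65 (SE 0.0669) corresponds to 1.57-fold, and leaving out single libraries moved it between 0.59 (without siZCC 4) and 0.70 (without siZCC 2). The antisense genes AL365181.3 and AL590666.2, which overlap BCAN, held at most 0.17% and 0.114% as many counts as BCAN in any library.

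NCAN, the neurocan of developing brain (chromosome 19, 19211973 to 19252233, plus strand), ran from 1188 to 1437 CPM in siNC with a median of 1252 and from 1413 to 1621 CPM in siZCC with a median of 1472. The siNC libraries 2 and 5 were high, and the groups overlapped by siNC 5, with 4 of 6 siZCC libraries above the siNC range. Its log2 fold change was 0.22 (SE 0.0494). BCAN differed by more than NCAN. By annotated exon length, BCAN per NCAN within a library went from 0.961 ± 0.0384 in siNC to 1.29 ± 0.112 in siZCC (SD, n = 6 each), without overlap of the groups. With the length of the longest transcript the ratios were 1.26 ± 0.0506 and 1.7 ± 0.147 (SD, n = 6 each). Whether BCAN or NCAN was higher in siNC therefore depends on the length used.

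VCAN, the versican of many embryonic tissues (chromosome 5, 83471465 to 83582303, plus strand), ran from 161 to 218 CPM in siNC with a median of 192 and from 224 to 245 CPM in siZCC with a median of 237. Its siNC libraries showed the same low and high ends as PTPRZ1, siNC 3 and siNC 5. The log2 fold change was 0.31 (SE 0.0516), and the groups did not overlap. VCAN per NCAN stayed at 0.0693 ± 0.0066 in siNC and 0.0736 ± 0.0031 in siZCC (SD, n = 6 each), with overlapping ranges.

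Of the transmembrane proteoglycans, CSPG5 (neuroglycan C, a neural proteoglycan with an EGF-like domain) ran from 91.8 to 107 CPM in siNC with a median of 97.8 and from 103 to 137 CPM in siZCC with a median of 117. Only siZCC 2 reached into the siNC range. Its log2 fold change was 0.25 (SE 0.0602). CSPG4 ran from 6.56 to 10.2 CPM in siNC with a median of 8.30 and from 6.96 to 11.4 CPM in siZCC with a median of 8.40, a log2 fold change of 0.10 (SE 0.123) that ran from 0.01 without siZCC 3 to 0.16 without siNC 1 and was 0.04 with the GC content and length correction. Its groups overlapped almost entirely, and its value is uncertain on a further count: the antisense genes AC105020.1 and AC105020.4 reached up to 22.6% and 11% of its counts, and the strand setting of the counting is not given in the sources used here.

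The tenascins are the hexameric TNC of progenitor zones and the trimeric TNR of perineuronal nets, both partners of the lecticans. TNC (chromosome 9, 115019578 to 115118257, minus strand) ran from 685 to 790 CPM in siNC with a median of 731 and from 594 to 730 CPM in siZCC with a median of 674. The groups overlapped, and 3 siZCC libraries lay below the siNC range. Its log2 fold change was -0.15 (SE 0.0483), and this call was lost in 6 of the 12 fits that left out 1 library (those without siNC 1, 4 or 6 or siZCC 1, 2 or 5). TNR ran from 15.4 to 22.1 CPM in siNC with a median of 18.1 and from 14.7 to 20.8 CPM in siZCC with a median of 16.7, a log2 fold change of -0.08 (SE 0.0894) that was not called and ran from -0.02 without siNC 5 to -0.13 without siZCC 5.

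**Figure D2:**
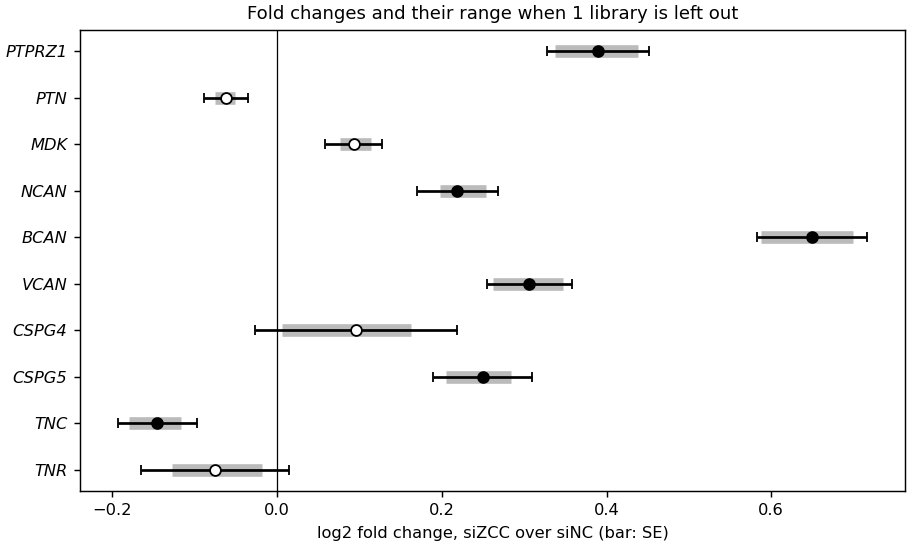
Log2 fold change of siZCC over siNC (x axis) for the 10 genes; points with bars are the estimate and its SE, filled where called in the fit of all genes, and grey bands span the estimates when 1 library is left out. BCAN lies farthest from 0 at 0.65, and TNC at -0.15 is the called gene on the other side.

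Whether the 10 genes vary together was examined on what the choice of members did not use, the deviations of the 12 libraries from their own group means in log2 CPM. The 9 relations of PTPRZ1 were tested by permuting libraries within groups (100000 resamples, two-sided). PTPRZ1 went with VCAN at Pearson's r = 0.884 (permutation p = 0.00953, adjusted over 9 relations 0.051) and Spearman's rho = 0.650 (permutation p = 0.0512, adjusted 0.23). It was 0.949 within siNC and -0.196 within siZCC, and fell to 0.483 without the 2 libraries farthest in PTPRZ1, so the relation rests on siNC 3 and siNC 5. With PTN, the more abundant ligand, r was -0.645 (permutation p = 0.0113, adjusted 0.051) and rho was -0.664 (permutation p = 0.01, adjusted 0.0904). That relation was negative in both groups (-0.832 and -0.658) and remained at -0.598 without the 2 farthest libraries. Neither passed the adjusted threshold, and the other 7 relations had adjusted p values of r from 0.369 to 0.976.

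The pairs that passed joined 4 genes, which are called a set here for that reason alone. Over all 45 pairs of the 10 genes, 36 of which were added after the correlations had been seen, 5 had an adjusted p of r under 0.05, each positive and each among NCAN, BCAN, CSPG5 and TNR. How often pairs of other genes reach such r was not counted, so the set is not shown to be particular to these genes. BCAN and CSPG5 had r = 0.915 (permutation p = 1e-05, the smallest these resamples can give; adjusted over 45 pairs 0.00045) and rho = 0.965 (permutation p = 1e-05, adjusted 0.00045). For NCAN and CSPG5 r was 0.907 (permutation p = 5e-05, adjusted 0.00112) and rho 0.853 (permutation p = 0.00014, adjusted 0.00315). Both held in siNC (0.945 and 0.977) and in siZCC (0.917 and 0.958) alone, and without the 2 farthest libraries (0.875 and 0.900).

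TNR, which was not called between the groups, belonged to the same set. It went with NCAN at r = 0.876 (permutation p = 0.00035, adjusted 0.00525) and rho = 0.790 (permutation p = 0.00165, adjusted 0.0186), and with CSPG5 at r = 0.802 (permutation p = 0.00417, adjusted 0.0375) and rho = 0.762 (permutation p = 0.00749, adjusted 0.0674). NCAN and BCAN had r = 0.728 (permutation p = 0.00066, adjusted 0.00742) and rho = 0.839 (permutation p = 0.00061, adjusted 0.00915). Without the 2 libraries farthest in the first-named gene these were 0.782, 0.809 and 0.610. The pair of BCAN and TNR did not pass (r = 0.571, permutation p = 0.0693, adjusted 0.26; rho = 0.657, permutation p = 0.0297, adjusted 0.167). With the means of the IL1B split also removed, an alternative whose adjustment over 45 pairs was added after seeing the data, 3 of the 5 still passed and 2 did not: NCAN and BCAN (r = 0.624, permutation p = 0.0108, adjusted 0.081) and CSPG5 and TNR (r = 0.661, permutation p = 0.0396, adjusted 0.162). BCAN and TNR then stood at r = 0.314, while PTPRZ1 with VCAN (r = 0.948, permutation p = 0.00257, adjusted 0.0363) and PTN with VCAN (r = -0.744, permutation p = 0.00459, adjusted 0.0413) passed. In this IL1B alternative the permutations ignored the split, so its p values may be too small. TNC stood outside the set, with r from -0.308 to 0.244 towards its 4 genes when only group means were removed. VCAN was outside it too, although its r with TNR on those residuals, 0.669 (permutation p = 0.00978, adjusted 0.0629), was above that of BCAN with TNR.

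**Figure D3:**
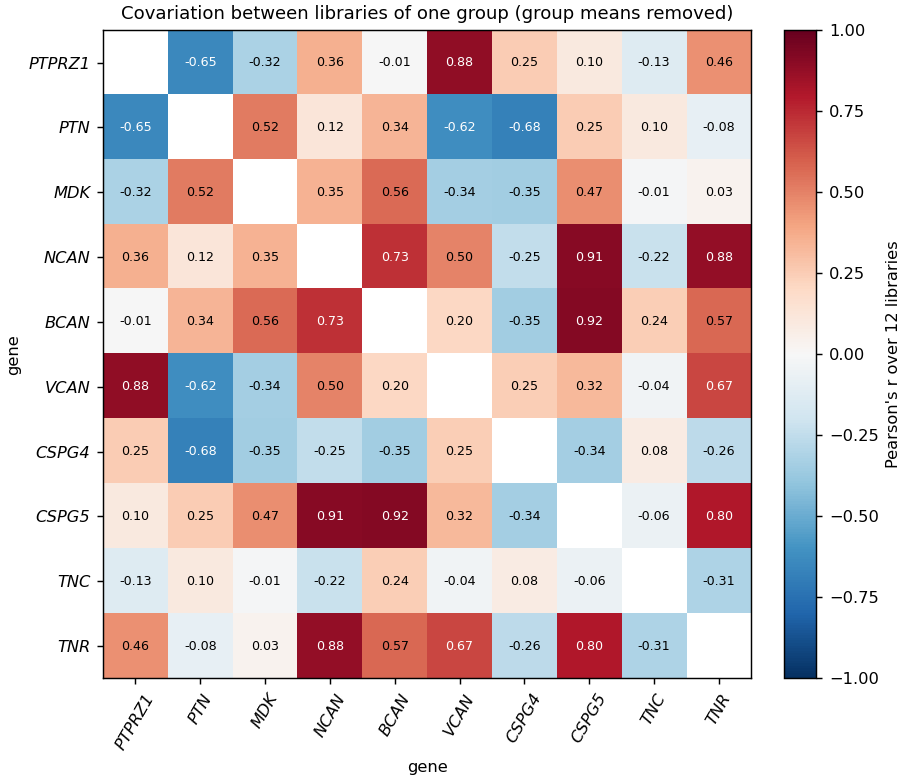
Pearson's r between each pair of the 10 genes over 12 libraries, after removal of group means (colour from -1 to 1, value printed in each cell). The pairs within NCAN, BCAN, CSPG5 and TNR run from 0.57 to 0.92, and PTPRZ1 goes with VCAN at 0.88.

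**Figure D4:**
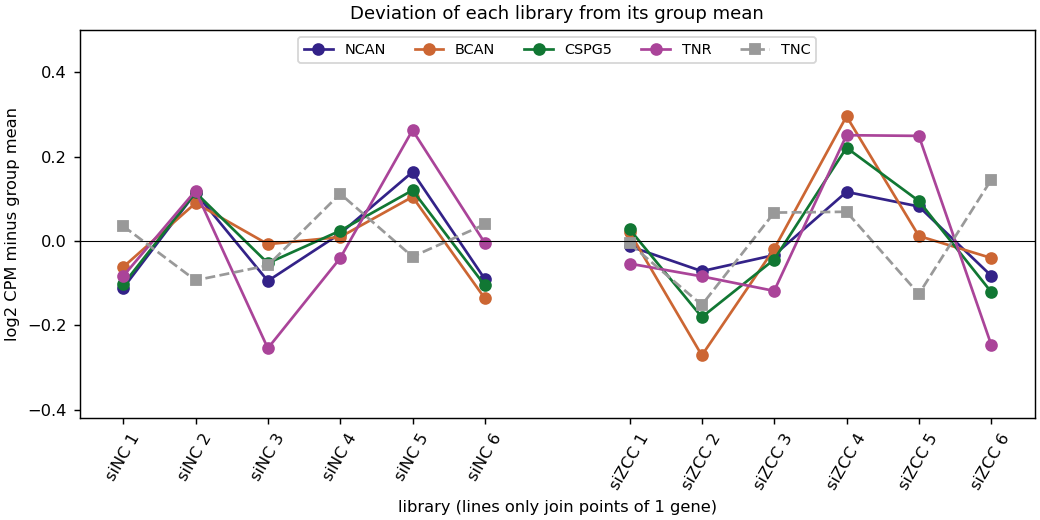
Deviation of log2 CPM from the group mean (y axis) in each library (x axis) for NCAN, BCAN, CSPG5 and TNR, with TNC in grey for contrast. The 4 genes are together above 0 in siNC 2, siNC 5, siZCC 4 and siZCC 5. They are together below 0, in places by little, in siNC 1, siNC 3, siNC 6, siZCC 2, siZCC 3 and siZCC 6. Of these libraries, TNC lies on the same side in siNC 3, siZCC 2 and siZCC 4, and on the other side in the rest.

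The same r was taken against the 12624 other genes that averaged 5 CPM or more. Among those most like PTPRZ1 were TMEM132B (r = 0.971), AC046134.2 (r = 0.969), ZNF81 (r = 0.951) and ENTPD1-AS1 (r = 0.949), over 12 libraries. From the highest r down, VCAN ranked 119 and PTN 12142, so many other genes had r with PTPRZ1 beyond these in either direction. Those most like PTN were POLR2F (0.908), MPND (0.900), RNF5 (0.896), MRPS21 (0.885) and SLC38A7 (0.880). These genes were picked for their r, which is therefore a description, and the 12 libraries share depth and preparation.

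The nearest tested protein-coding gene on either side of each member was checked next, with untested genes passed over and gaps of up to 1035547 bases. Of these 20 neighbours 5 were called, against 22.2% of all genes. BCAN lies at chromosome 1, 156641390 to 156659532 (GRCh38, GENCODE v29), between HAPLN2, whose end is 15665 bases before it, and NES, which begins 9231 bases after it. HAPLN2, a link protein of nodes of Ranvier, was higher in siZCC by 0.49 on the log2 scale (SE 0.0636; edgeR's quasi-likelihood test, adjusted p = 4.56e-05), from 5.33 ± 0.435 to 7.51 ± 0.525 CPM (SD, n = 6 each). NES, the progenitor intermediate filament, had a log2 fold change of 0.02 (SE 0.0431, edgeR adjusted p = 0.799). The neighbours of PTPRZ1, FAM3C (0.08, SE 0.0307) and AASS (0.06, SE 0.0443), and of VCAN, XRCC4 (0.09, SE 0.0588) and EDIL3 (-0.13, SE 0.0518), were not called (edgeR adjusted p from 0.0859 to 0.399). The other called neighbours were DGKI beside PTN (0.42, SE 0.0592, edgeR adjusted p = 0.0001), CHRM4 beside MDK (0.32, SE 0.0992, edgeR adjusted p = 0.0276), NR2C2AP beside NCAN (0.22, SE 0.0621, edgeR adjusted p = 0.0197) and KIAA0040 beside TNR (-0.56, SE 0.123, edgeR adjusted p = 0.00383). Link protein genes sit beside all lectican genes, but HAPLN4 next to NCAN and HAPLN1 next to VCAN had at most 3 and 4 counts in any library and were not tested.

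The rest of the pathway was taken from 7 lists made by function. Of 15 other receptors of PTN and MDK, 3 rose and 6 fell, with a median log2 fold change of -0.13 against -0.002 over all genes tested, where 22.2% were called. SDC3, N-syndecan, the neuronal heparan sulphate receptor of pleiotrophin, rose by 0.32 (SE 0.0401, edgeR adjusted p = 3.5e-05) from 814 ± 56.4 to 1017 ± 34.3 CPM (SD, n = 6 each), and it was the most abundant of the list per length. NRP1 fell by 0.30 (SE 0.0411, edgeR adjusted p = 7.33e-05) and nucleolin, NCL, by 0.12 (SE 0.0242, edgeR adjusted p = 0.00253). SDC1 and LRP1 also rose, while SDC2 and the integrin subunits ITGB1, ITGB3 and ITGA4 fell. The receptor ALK, at -0.13 (SE 0.0468), did not pass (edgeR adjusted p = 0.0553).

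Of the substrates and adhesion partners of PTPRZ1, 15 of 16 were tested. Of these, 2 rose and 1 fell, where 22.2% of all genes were called, and the median was 0.03. DLG4, the postsynaptic scaffold PSD-95, rose by 0.16 (SE 0.0327, edgeR adjusted p = 0.00264), and the neuregulin receptor ERBB4 by 0.18 (SE 0.0598, edgeR adjusted p = 0.0354). Beta-catenin, CTNNB1, fell by 0.08 (SE 0.0238, edgeR adjusted p = 0.0246). The ERBB4 call was lost in 9 of 12 fits without 1 library (it held without siNC 5, siNC 6 or siZCC 3), and the CTNNB1 call without siNC 1, 4 or 6 or siZCC 4, and with no filter on low counts (edgeR adjusted p = 0.0750). The count was 1 without siNC 4 or without siZCC 4. It was 5 with 1 surrogate variable, with the IL1B split or with the GC content and length correction. NCAM1, the most abundant per length at 796 CPM in siNC, had a log2 fold change of 0.02 (SE 0.0482, edgeR adjusted p = 0.832), and CNTN1, the neuronal contactin bound by PTPRZ1, of -0.04 (SE 0.0640, edgeR adjusted p = 0.727).

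Among 12 tested genes of the hyaluronan matrix, 2 rose and 2 fell, where 11.4% and 10.8% of all genes did, with a median of 0.06; 7 were called without siNC 5. Both risers were link proteins, HAPLN2 and HAPLN3 (0.49, SE 0.0568, edgeR adjusted p = 1.75e-05). The hyaluronan receptor CD44 fell by 0.56 (SE 0.106, edgeR adjusted p = 0.00118) from 183 ± 31.2 to 124 ± 18.5 CPM (SD, n = 6 each), and the hyaluronidase CEMIP2 by 0.32 (SE 0.0650, edgeR adjusted p = 0.00198). The synthases HAS2 and HAS3 lay at -0.01 and -0.0025 and were not called.

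Genes that build chondroitin sulphate went both ways. Of 24 tested, 6 rose and 6 fell, where 11.4% and 10.8% of all genes did, with a median of -0.02. The chain polymerising factor CHPF rose by 0.32 (SE 0.0326, edgeR adjusted p = 5.4e-06) and the 4-O-sulphotransferase CHST11 by 0.25 (SE 0.0341, edgeR adjusted p = 7.77e-05). In both the groups did not overlap, as in 9.74% of all genes tested. The sulphotransferase CHST7 fell by 0.30 (SE 0.0558, edgeR adjusted p = 0.00109). The count was 8 without siNC 6.

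Of 19 lectican-cleaving proteases and their inhibitors, 6 rose and 2 fell, where 11.4% and 10.8% of all genes did, with a median of 0.03. The inhibitors TIMP3 (0.39, SE 0.0308, edgeR adjusted p = 5.66e-07), TIMP2 (0.25, SE 0.0251, edgeR adjusted p = 4.42e-06) and TIMP4 (0.28, SE 0.0491, edgeR adjusted p = 7.05e-04) rose, and TIMP1 was not called. TIMP2 went from 827 ± 18.9 to 983 ± 22.3 CPM (SD, n = 6 each). The gelatinase MMP2 fell by 0.57 (SE 0.0883, edgeR adjusted p = 2.29e-04). Of the hyalectanases, which cut brevican and versican, ADAMTS1 and ADAMTS4 rose and ADAMTS15 fell.

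The list of neuronal receptors of chondroitin sulphate also held co-receptors and EGFR. Of its 10 genes, 5 were higher and 1 lower, with a median of 0.19, where 11.4% of all genes were higher and 10.8% lower. The receptor phosphatases PTPRF (0.21, SE 0.0357, edgeR adjusted p = 5.26e-04), PTPRD and PTPRS (0.10, SE 0.0318, edgeR adjusted p = 0.0310), the Nogo receptor RTN4R and its co-receptor TNFRSF19 (0.35, SE 0.0368, edgeR adjusted p = 7.64e-06) rose. NGFR, another co-receptor, fell by 0.68 (SE 0.0589, edgeR adjusted p = 1.18e-06) from a low level of 6.44 ± 0.406 CPM (SD, n = 6). The PTPRS call was lost in 7 of 12 fits without 1 library (siNC 1, 3 or 6, siZCC 1, 3, 4 or 5), with upper quartile scaling (edgeR adjusted p = 0.0503), with no filter on low counts (0.0835) and with the GC content and length correction, which gave a log2 fold change of 0.05 (edgeR adjusted p = 0.145). Without siNC 1 the list's count was 4.

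Among 17 tested proteoglycans of other families, 5 rose and 4 fell, where 11.4% and 10.8% of all genes did, with a median of 0.01. The testicans parted: SPOCK2 rose by 0.25 (SE 0.0440, edgeR adjusted p = 7.61e-04) and SPOCK3 fell by 0.26 (SE 0.0480, edgeR adjusted p = 9.74e-04). TGFBR3, betaglycan, rose by 0.46 (SE 0.0901, edgeR adjusted p = 0.00145). GPC1, the most abundant per length, had a log2 fold change of -0.10 (SE 0.0508, edgeR adjusted p = 0.190); with the GC content and length correction it was called at -0.15.

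**Figure D5:**
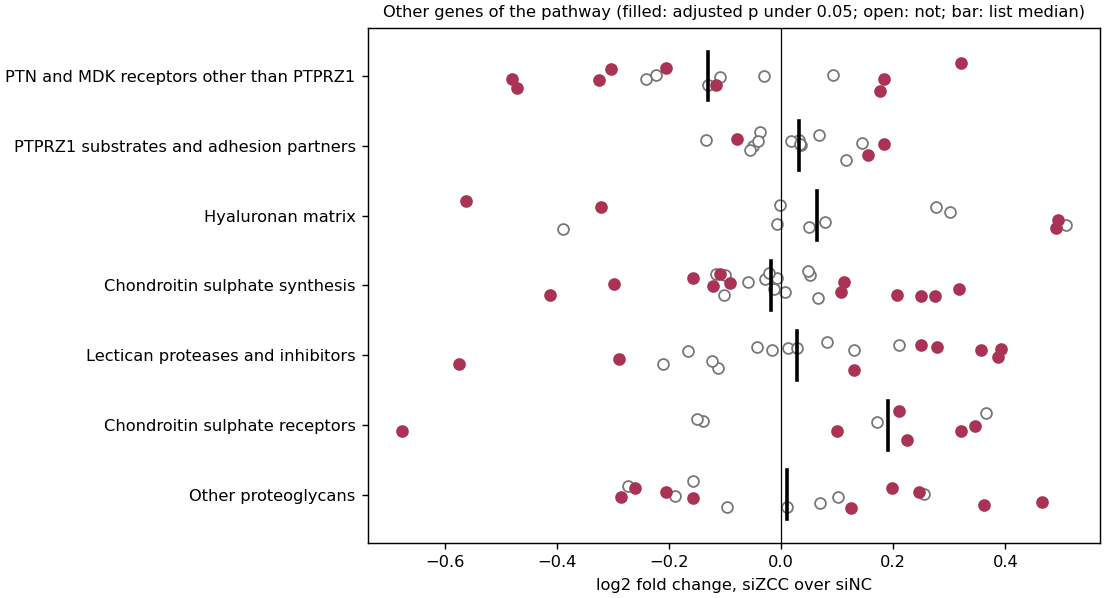
Log2 fold change of siZCC over siNC (x axis) for the tested genes of the 7 pathway lists (rows); filled points have an adjusted p under 0.05 in edgeR's test, open points do not, and the bar is the median of the list. Medians run from -0.13 for the other receptors of PTN and MDK to 0.19 for the chondroitin sulphate receptors.

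Markers of the cell types that make these proteins moved in part with the groups, and their part in the values of the 10 genes was not tested; 22.2% of all genes were called, 11.4% higher and 10.8% lower. Of 12 radial glia and progenitor markers, 4 were higher (SOX2, PAX6, SLC1A3 and MOXD1) and 2 lower (FABP7 and HOPX), and their summed level ran from 6671 to 6971 CPM in siNC and from 6796 to 7333 CPM in siZCC. Of 9 astrocyte markers, 8 were tested and GJB6 did not pass the filter. Of those tested, 3 were higher (ALDH1L1, AGT and ALDOC) and 1 lower (AQP4), with sums of 1164 to 1473 and 1175 to 1556 CPM. ALDOC rose by 0.98 (SE 0.0877, edgeR adjusted p = 1.39e-06) from 9.86 CPM in siNC, and AQP4 fell by 0.21 (SE 0.0575, edgeR adjusted p = 0.015) from 109 CPM. Oligodendrocyte precursor markers were scarce, with sums of 13.4 to 16.9 and 16.6 to 18.4 CPM over 5 tested genes, 1 higher and 1 lower, and SOX10 and NKX2-2 did not pass the filter. Of 10 neuron markers, 1 was higher and 4 lower, with sums of 3128 to 3524 and 2872 to 3234 CPM. Mesenchymal and mural markers had 1 higher and 4 lower of 8, with sums of 531 to 877 and 414 to 619 CPM, and the 5 markers of dividing cells were all lower, with sums of 514 to 591 and 395 to 467 CPM. None of the 3 tested oligodendrocyte markers was called (sums of 403 to 449 and 393 to 449 CPM; MOG, MAG and MOBP did not pass the filter), nor either of the 2 tested microglia markers (0.963 to 1.97 and 1.02 to 1.76 CPM; AIF1, CX3CR1, P2RY12 and TREM2 did not pass it). No marker had 0 counts in every library. Of the most abundant markers per length, LHFPL3 of oligodendrocyte precursors rose by 0.39 (SE 0.0853, edgeR adjusted p = 0.00333). GAP43 of neurons fell by 0.16 (SE 0.0484, edgeR adjusted p = 0.0235; call lost without siNC 1 or 3 or siZCC 4 or 5), ACTA2 of mural cells by 0.57 (SE 0.0821, edgeR adjusted p = 1.23e-04) and TOP2A of dividing cells by 0.24 (SE 0.0464, edgeR adjusted p = 0.00143). Other called markers of these lists went the other way. PDGFRA of oligodendrocyte precursors, at only 0.393 CPM in siNC, fell by 0.64 (SE 0.184, edgeR adjusted p = 0.0194). PDGFRB of mural cells rose by 0.42 (SE 0.0498, edgeR adjusted p = 2.25e-05) and SYT1 of neurons by 0.12 (SE 0.0402, edgeR adjusted p = 0.0477). VIM, GJA1, CNP and CSF1R were not called.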

How the data were processed

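Total RNA was sequenced in 12 libraries after Qiazol lysis with a directional NEBNext Ultra II library kit, per the labels' protocols. The authors deposited a table of raw counts per gene symbol, 1 column per library. STAR 2.7.6a, featureCounts 2.0.1, bcl2fastq 2.17 and GRCh38 are named in the submitters' processing notes; the annotation and strand setting are not given in the sources used here. Groups and replicate numbers come from the titles.

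Counts were analysed with edgeR 4.0.16 in R 4.3.3. The default filterByExpr kept 24671 of 59653 genes, library sizes were scaled by TMM, and siZCC was compared with siNC by the quasi-likelihood test without covariates, with Benjamini-Hochberg adjustment over all genes kept and a threshold of 0.05. The SE is the log2 fold change divided by the square root of F. Log2 CPM uses a prior count of 2. Positions and exonic lengths are from GENCODE v29, in which 92.2% of the symbols were found, and promoters from RefSeq. The script was tested on simulated counts.

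The members and lists were chosen with earlier results of these data known. Named are all members, ZCCHC17, and from each pathway list the 3 called genes with the smallest p and the most abundant gene per length; from marker lists the most abundant gene and those removed by the filter; and the 5 genes most like PTPRZ1 and the 5 most like PTN, of which 1 is not reported here. Other genes, including all neighbours and further list and marker genes, were named after their values were seen. Alternatives were DESeq2 size factors, upper quartile scaling, filtering at a mean count of 50 or not at all, DESeq2 1.42.0 (Wald test), voom in limma 3.58.1, a block for the replicate number, 1 surrogate variable from sva 3.50.0, the IL1B split, a correction for GC content and length, and each library left out. Permutations used numpy 2.4.6 and scipy 1.17.1 (Python 3.11.15). Depth makes counting error small for most genes; the spread between libraries (biological coefficient of variation 6.55%) sets the precision. Protein sequences and splicing were not analysed here.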

Additional observations from a re-analysis of the deposited data

Results flagged for a closer look

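In 88 groups of 6 libraries (the 10 members, the other genes chosen by rule, and the library total), 6 had 1 library farther from its nearest neighbour, relative to the range of the group, than Dixon's 95% limit, where chance gives about 4.4 (5% of groups). None of the 6 concerns a member. In siNC 4 the table sums to 90755953 counts, and the next lowest siNC library holds 109973707. CTNNB1 was at 502 CPM in siZCC 6, against 481 to 488 in the other siZCC libraries. ERBB4 was at 97.7 CPM in siZCC 2, against 85.4 to 89.6. CHST7 was at 16.5 CPM in the same library, against 19.2 to 20.4. CHST11 stood at 80.2 CPM in siZCC 1, against 74.8 to 76.1. TIMP2 was at 939 CPM in siZCC 5, against 983 to 1002 in the others.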

How the results depend on the processing

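Under the 10 alternatives that used all libraries, the 10 members kept their direction in all 100 values and their side of the threshold in 99; MDK passed only in the Wald test of DESeq2. The correction for GC content and length gave 0.61 for BCAN, 0.39 for PTPRZ1 and -0.17 for TNC. In the 120 values with 1 library left out, TNC lost its call in 6 and MDK gained one in 2, and no direction changed; 5 to 7 members were called. Replicate numbers were not treated as a pairing, since residuals of libraries sharing a number had correlations of only -0.077 to 0.018. A fit with that number as a block called 6 members and changed none of their calls; over all genes it called 4902, CTNNB1 was lost (adjusted p = 0.0619) and GPC1 gained (adjusted p = 0.0312).

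For the substrates and partners of PTPRZ1, 5 genes were called with 1 surrogate variable, with the IL1B split or with the GC and length correction, and 1 to 4 with 1 library left out; hyaluronan matrix genes gave 4 to 7. The causes were not tested. Of the 9 relations of PTPRZ1, 2 passed with DESeq2 size factors and 1 with the IL1B means removed, against 0. For the IL1B alternative the permutations ignored the split, so its p value may be too small. Among the members, ZCCHC17 and the list genes chosen by rule, signs turned only for genes that were not called. These were NCAM1 (-0.0082 without siNC 3, -0.0029 without siZCC 4, up to 0.0508), VIM (-0.0023 without siZCC 6, up to 0.0314), CNP (0.0047 without siNC 3, 0.0142 without siZCC 2, 0.0005 without siZCC 5, down to -0.0197) and CSF1R (0.0096 without siNC 4, 0.0092 without siNC 5, down to -0.202). In the main fit NCAM1, VIM and CNP lay near 0, while CSF1R was at -0.10 (SE 0.197). Over all genes 4484 (without siNC 6) to 5626 (without siZCC 2) were called with 1 library left out. With the length of the longest transcript BCAN moved ahead of NCAN in the order of levels per length in siNC. CSPG4 and TNR have the fewest counts, 565 to 1134 and 1391 to 2654 per library, and the widest errors.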
